A study of Rattus norvegicus with 82 samples.

Results

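Titin, the M-band and the Z-disc make up the scaffold of the sarcomere, and 9 genes of this scaffold were chosen by name, namely *Ttn*, *Mybpc3*, *Myom1*, *Myom2*, *Myom3*, *Ldb3*, *Tcap*, *Actn2* and *Myoz2*. Of these, 7 had a row among the 17337 genes of the count table and all 7 were tested, while *Ttn* and *Myom3* were not analysed here. RNA was sequenced from cardiomyocytes of the right ventricle (RV) and of the left ventricle (LV) of 41 rats, isolated apart from each other, which gave 82 libraries in 12 groups. The cells came from hearts perfused with collagenase and were collected by centrifugation, so other heart cells could remain, and total RNA depleted of ribosomal RNA was sequenced. All animals were F1 offspring of Wistar Kyoto mothers and Lewis fathers, and both sexes were included. Pulmonary artery banding (PAB) loads the RV and aortic banding (AOB) loads the LV, and sham-operated rats served as controls at the compensated, hypertrophic stage (H) and at the decompensated, failing stage (F). By the labels, the H animals were 11 weeks old and were taken 7 weeks after surgery, with 7 Sham-H, 6 PAB-H and 6 AOB-H rats. The F animals comprised 9 Sham-F and 7 AOB-F rats of 31 weeks, taken 26 weeks after surgery, and 6 PAB-F rats of 28 weeks, taken 22 weeks after surgery, so PAB-F rats were younger than the Sham-F rats they were compared with. The study's schedule gives ages that differ from those of the labels, and stage here covers age and time after surgery together. Males numbered 3 of 7 in Sham-H, 4 of 6 in PAB-H, 2 of 6 in AOB-H, 4 of 9 in Sham-F, 4 of 6 in PAB-F and 4 of 7 in AOB-F.

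In the sarcomere, thin filaments are anchored at the Z-disc and thick filaments are held together at the M-band, and titin spans from the one to the other as an elastic filament. *Myom1* and *Myom2* encode myomesin and M-protein, which crosslink thick filaments and titin at the M-band, and *Mybpc3* encodes cardiac myosin-binding protein C, a regulator of cross-bridges on the thick filament. At the Z-disc, *Actn2* encodes alpha-actinin, which crosslinks actin filaments of neighbouring sarcomeres, *Tcap* encodes telethonin, which caps the end of titin, *Ldb3* encodes cypher (ZASP), which binds alpha-actinin, and *Myoz2* encodes calsarcin-1, which ties calcineurin to the Z-disc. Titin and *Ldb3* are known for isoforms made by alternative splicing, which counts per gene cannot show.

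Promoter sequence is shown for the 5 genes with an entry in the RefSeq promoter table (GRCr8 build), since all 5 were called together as higher in the RV of the F rats described further on. *Myom2* and *Tcap* had no entry. The lines give, from 5′ to 3′, the 120 bases that end just before the annotated start, for *Mybpc3* (chr3:97550941-97551060, plus strand), *Myom1* (chr9:118367026-118367145, plus strand), *Ldb3* (chr16:9924680-9924799, minus strand), *Actn2* (chr17:62834935-62835054, plus strand) and *Myoz2* (chr2:213852779-213852898, minus strand). Capitals mark matches, on either strand, to the MEF2 motif, to the CArG box that serum response factor binds, or to the palindrome CACGTG, and these 3 motifs have no overlapping match here.
Mybpc3: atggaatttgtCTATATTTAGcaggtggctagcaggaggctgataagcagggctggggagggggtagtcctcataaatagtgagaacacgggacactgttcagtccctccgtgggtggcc
Myom1: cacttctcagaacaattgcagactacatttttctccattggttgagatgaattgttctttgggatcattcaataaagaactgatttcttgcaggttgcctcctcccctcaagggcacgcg
Ldb3: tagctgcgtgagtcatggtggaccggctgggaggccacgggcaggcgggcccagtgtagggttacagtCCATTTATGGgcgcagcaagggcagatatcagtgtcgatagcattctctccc
Actn2: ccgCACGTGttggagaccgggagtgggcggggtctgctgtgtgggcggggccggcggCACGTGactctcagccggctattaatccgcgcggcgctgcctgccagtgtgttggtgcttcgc
Myoz2: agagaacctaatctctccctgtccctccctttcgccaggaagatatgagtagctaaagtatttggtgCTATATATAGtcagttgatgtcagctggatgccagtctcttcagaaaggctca

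A MEF2 match lay 109 to 100 bases before the start of *Mybpc3* and 53 to 44 bases before that of *Myoz2*, and 1.31% of the 27457 rat promoters had such a match in a window of the same length. *Ldb3* held a CArG match 52 to 43 bases before its start (in 0.652% of all promoters) and *Actn2* held CACGTG at 2 places (in 3.33% of all promoters). The window of *Myom1* held none of the 3 motifs. These are matches of letters, not measured sites.

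The libraries held 6675290 to 19665400 counts on genes (median 13074500). A list of 9 ventricular cardiomyocyte genes took 6.05% to 12.9% (median 11.0%) of the counts in a library, while atrial and skeletal muscle lists took at most 0.00942% and 0.00143%. Other heart cells left a small signal, with 0.0151% to 0.304% (median 0.0455%) for 10 fibroblast genes, 0.0595% to 0.472% (median 0.129%) for 7 endothelial genes, 0.0951% to 0.192% (median 0.119%) for 7 mural cell genes and 0.00545% to 0.0357% (median 0.00797%) for 8 macrophage genes. The 4 red blood cell genes took at most 0.0264%, with *Hba1* at 0 in 82 and *Hba2* at 0 in 62 libraries. Of the fibroblast genes, *Col1a2* was at 0 in 71 libraries, and of the skeletal muscle genes *Myh1*, *Myh4*, *Pvalb* and *Tnnc2* were at 0 in 76, 77, 71 and 61 libraries. Over all tested genes other than the 7, each library was compared with the mean profile of the 4 classes of ventricle and stage, itself left out. By root mean square distance on the log2 scale, LV Sham-H 4, LV Sham-H 5 and LV PAB-H 2 were closest to the LV F class, and LV AOB-F 5 and LV PAB-F 5 to the LV H class. Results for the 7 genes that involve LV libraries are therefore also given without these 5 libraries where their count or call changed. Other named genes and gene lists were not examined without these 5. The 5 were picked by their likeness to the other stage, so leaving them out favours wider differences between the stages. Smaller p values between stages without them are therefore no added support. Among RV libraries, RV PAB-H 2, RV PAB-F 1 and RV AOB-H 6 were closest to the LV H class. Results that involve them are likewise given without these 3 where the call changed, a step chosen after the data were seen. As the 3 were picked by their likeness to the LV, leaving them out favours wider differences between the ventricles. Smaller p values between RV and LV without them are no added support either. Another 6 libraries were kept in these fits, namely RV Sham-F 7 and 8, LV Sham-H 1 and 7, LV AOB-H 4 and LV PAB-H 6, all closest to the RV H class. In these bulk samples, fewer cells of a type and less RNA per cell cannot be told apart.

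All 7 genes were abundant, and their lowest count in any library was 978. Together they took 1.2% to 2.55% (median 2.16%) of all counts. In FPKM, which scales fragments to gene length and library size and so lets genes be compared, the order of the means over 82 libraries was *Mybpc3* with 1619 ± 251 (SD), *Myom2* with 1267 ± 446, *Actn2* with 1136 ± 209.6, *Myoz2* with 730.0 ± 146, *Tcap* with 453 ± 165, *Myom1* with 289.9 ± 98.8 and *Ldb3* with 278 ± 61.5. Neighbours in this order often changed places, apart from *Actn2*, which exceeded *Myoz2* in 82 of 82 libraries. *Myom2* exceeded *Actn2* in 52 libraries, and *Myom1* exceeded *Ldb3* in 54. All other levels are CPM, counts per 1000000 on TMM effective library sizes, which compare samples but not genes, and changes are log2 fold changes from the quasi-likelihood test of edgeR, adjusted by Benjamini-Hochberg over 11954 tested genes. The spread over libraries was unequal, with the highest library at 7.48 times the lowest for *Tcap*, 5.5 times for *Myom2*, 3.98 times for *Myom1* and 2.25 times for *Mybpc3*. Within groups the biological coefficient of variation ran from 0.143 for *Mybpc3* to 0.334 for *Tcap*, beside a common value of 0.244 over all tested genes.

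**Figure D1:**
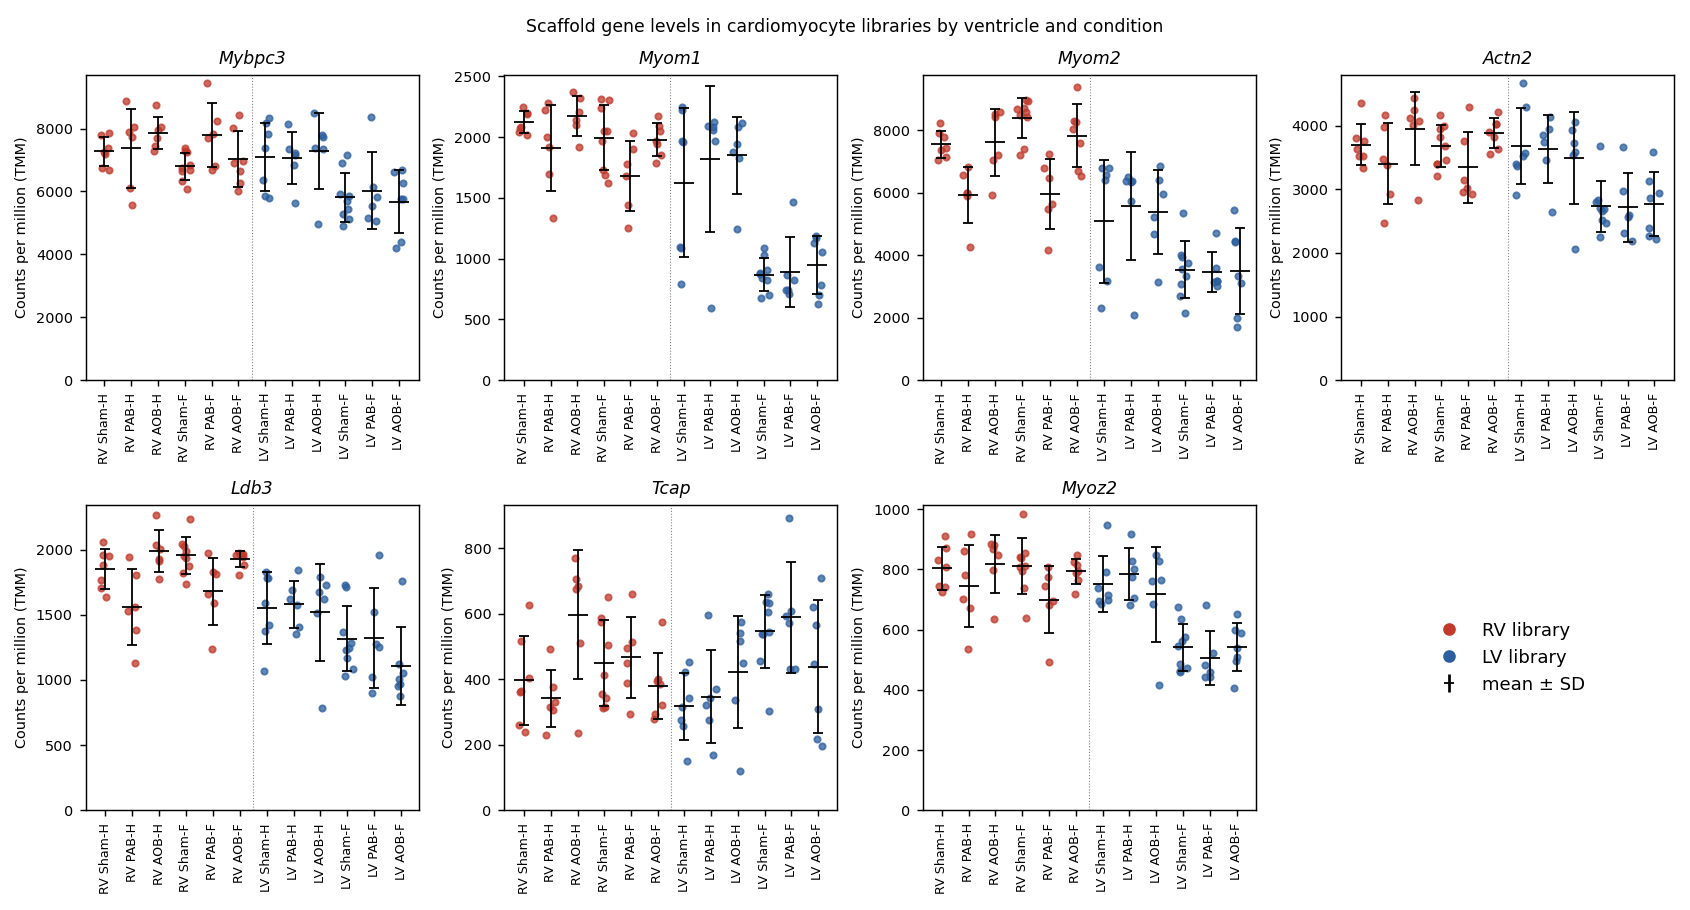
Level of each of the 7 scaffold genes in CPM on a linear axis, with 1 point per library in 12 groups (RV in red, LV in blue) and the mean and SD of each group in black. The LV groups of the F stage lie below the RV groups for *Myom1* and *Myom2*, whereas *Tcap* shows a wide spread inside every group.

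The clearest differences were those between the ventricles at the F stage, which tell how the scaffold of older RV and LV cardiomyocytes compares. In Sham-F rats 6 of the 7 genes were higher in the RV, led by the M-band genes, and *Tcap* was not called. The background was large, since 74.3% of all genes were called in this comparison and 35.6% were called as higher in the RV. *Myom2* reached 7198 to 8953 CPM (median 8588) in the RV and 2159.5 to 5332 CPM (median 3570.5) in the LV. Every RV library lay above every LV library, and the level was 2.37-fold (95% confidence interval 1.86 to 3.01) higher in the RV, a log2 fold change of 1.24 ± 0.17 (SE, adjusted p = 1.9e-09). *Myom1* showed the same separation, with 1621 to 2315 CPM (median 2046) in the RV, 678 to 1086 CPM (median 874) in the LV and a log2 fold change of 1.20 ± 0.16 (SE, adjusted p = 2.48e-10). Here and below, the share of all genes without overlap between the compared groups was not computed. A lack of overlap therefore describes single genes only. By the study's own criteria (a change over 2-fold, a mean count over 50 and p no higher than 0.01 before adjustment) *Myom1* and *Myom2* were the 2 genes that passed, beside 27.7% of all genes.

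Among the Z-disc genes, *Ldb3* held 1737 to 2232 CPM (median 1952) in the RV and 1033 to 1725 CPM (median 1243) in the LV of Sham-F rats, again without overlap, and changed by 0.57 ± 0.12 (SE, adjusted p = 1.94e-05). *Myoz2* held 638 to 985 CPM (median 811) against 461 to 674 CPM (median 545), with a log2 fold change of 0.58 ± 0.10 (SE, adjusted p = 3.97e-07), and its groups overlapped slightly. *Actn2* held 3213 to 4174 CPM (median 3679.5) against 2247 to 3684 CPM (median 2696) and changed by 0.43 ± 0.11 (SE, adjusted p = 0.000279). LV Sham-F 2 was the LV library that reached the RV range. The thick filament gene *Mybpc3* showed the smallest called difference, 0.23 ± 0.10 (SE, adjusted p = 0.032), from 6076 to 7371 CPM (median 6759) in the RV and 4898 to 7155 CPM (median 5693) in the LV, and this call was lost without LV Sham-F 9, at 0.21 (edgeR adjusted p = 0.061), and with libraries scaled to their totals, at 0.14 (adjusted p = 0.105). *Tcap* went the other way without passing the test, with 313 to 651 CPM (median 413) in the RV, 304 to 659.7 CPM (median 544) in the LV and a log2 fold change of -0.28 ± 0.23 (SE, adjusted p = 0.27). With the animal as a block it was called, at -0.30 (adjusted p = 0.0321), although the RV was lower in 5 of 9 animals.

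The AOB-F rats showed the pattern again. Of the 7 genes 6 were called, all higher in the RV, beside 67.1% of all genes called and 32% called as higher. *Myom2* changed by 1.16 ± 0.20 (SE, adjusted p = 4.93e-07), *Myom1* by 1.06 ± 0.18 (SE, adjusted p = 3.93e-07) and *Ldb3* by 0.80 ± 0.14 (SE, adjusted p = 5.65e-07). RV libraries held 6520.0 to 9392 CPM (median 8025) of *Myom2* and LV libraries 1707 to 5459 CPM (median 3317), and for *Myom1* the values were 1783 to 2176 CPM (median 1966) and 626 to 1185 CPM (median 1052). Neither gene overlapped between the ventricles, nor did *Ldb3* or *Myoz2*, and the share of all genes without overlap was not computed. *Ldb3* was most even in the RV, where it held 1804 to 1976 CPM (median 1957), and in the LV it held 875 to 1760.1 CPM (median 1009). *Myoz2*, *Actn2* and *Mybpc3* changed by 0.55, 0.49 and 0.31, with edgeR adjusted p values of 2.44e-05, 0.000362 and 0.011. The *Mybpc3* call was lost with library totals, at 0.19 (adjusted p = 0.0556), with scaling to 7 filament genes, at 0.16 (adjusted p = 0.23), and in a fit of the compared groups alone, at 0.29 (adjusted p = 0.0626). *Tcap* stayed uncalled at -0.21 ± 0.26 (SE, adjusted p = 0.481). By the study's criteria 2 genes passed, *Myom1* and *Myom2*, beside 21.9% of all genes.

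In PAB-F rats, whose RV was the loaded ventricle, the same 6 genes were called as higher in the RV, beside 61.2% of all genes called and 32.1% called as higher. The log2 fold changes were 0.92 ± 0.19 (SE, adjusted p = 3.29e-05) for *Myom1*, 0.78 ± 0.21 (SE, adjusted p = 0.00105) for *Myom2* and 0.47 ± 0.12 (SE, adjusted p = 0.000776) for *Myoz2*. RV libraries held 1248 to 2031 CPM (median 1727) of *Myom1* and LV libraries 706 to 1466 CPM (median 781). The ranges of all 7 genes overlapped here, and LV PAB-F 5, 1 of the 5 libraries that stood apart, was the highest LV library for *Mybpc3*, *Myom1*, *Myom2*, *Ldb3*, *Actn2* and *Myoz2*. *Ldb3* (0.35, edgeR adjusted p = 0.035) and *Actn2* (0.30, edgeR adjusted p = 0.0408) were close to the threshold, and both calls were fragile. *Ldb3* was not called without LV PAB-F 2, 3, 4 or 6 or RV PAB-F 3, 4 or 5, and *Actn2* was not called without LV PAB-F 1, 2, 3 or 6 or RV PAB-F 4 or 5, each left out alone, with lowest values of 0.26 and 0.22. *Ldb3* was not called with library totals either, at 0.28 (adjusted p = 0.0621), and *Mybpc3* was not called in a fit of the compared groups alone, at 0.34 (adjusted p = 0.0828). In that fit *Ldb3* and *Actn2* were not called either. Over 12 alternatives, the study's criteria among them, the call was lost in 7 for *Ldb3*, in 6 for *Actn2* and in 3 for *Mybpc3*. With the deciles of gene length centred, as described in the next paragraph, *Ldb3*, *Actn2* and *Mybpc3* were not called in PAB-F, at 0.049 (adjusted p = 0.784), 0.22 (adjusted p = 0.147) and 0.23 (adjusted p = 0.0859). *Tcap* was lower in the RV in 6 of 6 animals, by -0.56 to -0.15 (median -0.32) on the log2 scale from lowest to highest, but was not called at -0.33 ± 0.28 (SE, adjusted p = 0.303). Whether the ventricular difference itself differs between PAB-F and Sham-F is the same contrast as the response to PAB in RV against LV, which is given with the banding results.

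Markers of some other heart cells moved with these differences. In Sham-F the endothelial list took 0.165% to 0.317% (median 0.258%) of LV counts and 0.0595% to 0.102% (median 0.0795%) of RV counts, and the fibroblast list 0.0427% to 0.128% (median 0.0662%) and 0.0151% to 0.0507% (median 0.0242%). The ventricular cardiomyocyte list took 8.74% to 10.7% (median 9.88%) in the LV and 10.3% to 12.4% (median 11.0%) in the RV. In AOB-F the endothelial list took 0.179% to 0.35% (median 0.305%) of LV and 0.0746% to 0.104% (median 0.0851%) of RV counts, and in PAB-F 0.151% to 0.316% (median 0.277%) and 0.0799% to 0.191% (median 0.125%). In PAB-F the ranges of the fibroblast list overlapped, at 0.0373% to 0.124% in the LV and 0.0273% to 0.199% in the RV. Those of the mural cell list were alike, at 0.110% to 0.163% in the LV and 0.112% to 0.164% in the RV. The part of these shares in the changes of the scaffold genes was not tested. Gene length also moved with the ventricle. Between RV and LV of Sham-F the median log2 fold change of all genes was -0.39 in the shortest decile of genes, which holds *Tcap* and *Myoz2*, and 0.25 in the longest decile, which holds *Myom1* and *Ldb3*. *Myoz2* lay above the median of its decile, and *Tcap* near it. With the length deciles centred, the differences in Sham-F were 1.12 (adjusted p = 1.78e-08) for *Myom2*, 0.88 (adjusted p = 4.3e-08) for *Myom1*, 0.86 (adjusted p = 4.89e-11) for *Myoz2*, 0.38 (adjusted p = 0.00149) for *Actn2*, 0.25 (adjusted p = 0.0504) for *Ldb3* and 0.10 (adjusted p = 0.358) for *Mybpc3*, so that the last 2 were no longer called.

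**Figure D2:**
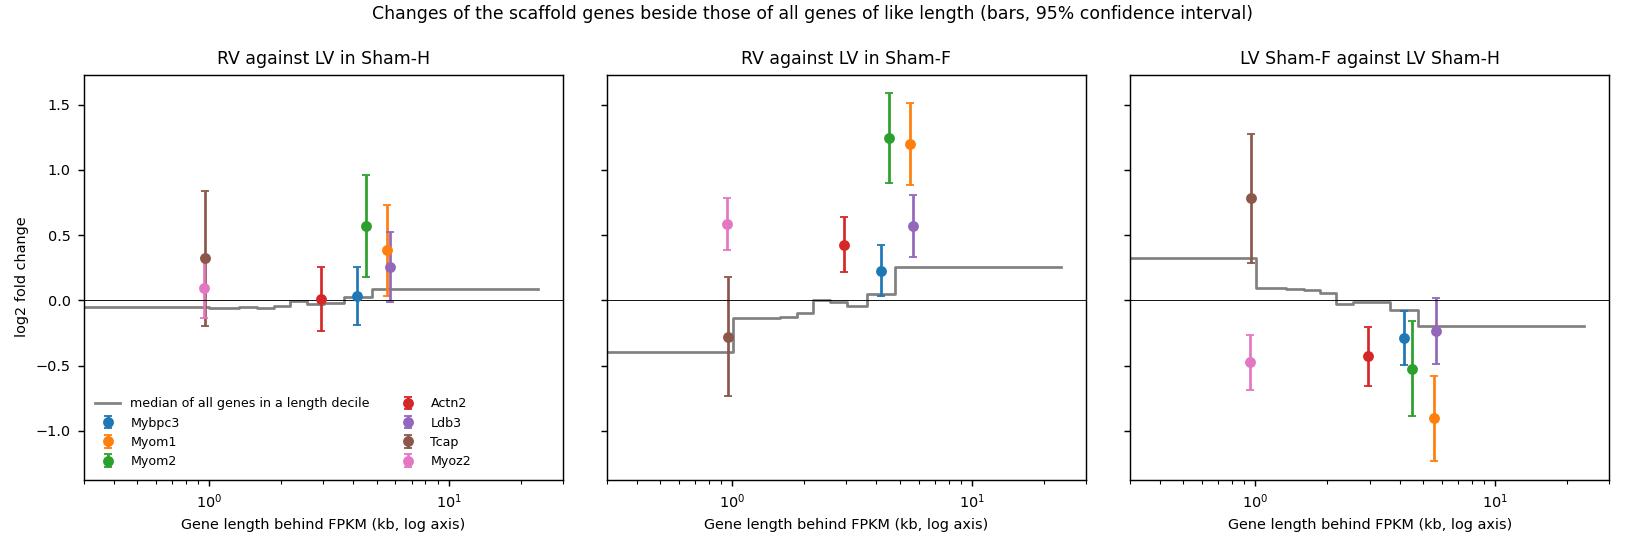
Log2 fold change of the 7 genes (points, with 95% confidence intervals) against gene length in kb on a log axis, beside the median of all tested genes in each decile of length (grey line), for RV against LV in Sham-H and in Sham-F and for LV Sham-F against LV Sham-H. In Sham-F the M-band genes lie above the grey line at 1.20 and 1.24, and the short gene *Myoz2* lies above it at 0.58 while *Tcap*, of like length, lies at -0.28.

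At the H stage the ventricles of the same design differed less. In Sham-H rats *Myom2* was the 1 gene of 7 called, beside 21% of all genes. It held 7029.6 to 8217 CPM (median 7419) in the RV and 2299 to 6787 CPM (median 6415) in the LV without overlap, a log2 fold change of 0.57 ± 0.20 (SE, adjusted p = 0.03). The LV values of *Myom2* fell into a lower part, with 3162, 2299 and 3611 CPM in LV Sham-H 4, 5 and 6, and an upper part from 6415 to 6787 CPM in the other 4 libraries. LV Sham-H 6 was not among the 5 libraries that stood apart. *Myom1* split the same libraries, with 1097, 793 and 1089 CPM in 4, 5 and 6 and at least 1961 CPM in the others. Without the 5 libraries that stood apart, the difference of *Myom2* was 0.32 (adjusted p = 0.327), and the call was also lost when LV Sham-H 4, 5 or 6 was left out alone, with a lowest value of 0.46. With the animal as a block, *Myom2* changed by 0.68 (adjusted p = 0.00132) and *Myom1* was called as well, at 0.48 (adjusted p = 0.0155). Without the block *Myom1* was not called, at 0.38 ± 0.18 (SE, adjusted p = 0.101), and it was called without LV Sham-H 3 or without LV Sham-H 7, at 0.48 in each case.

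In PAB-H 0 of 7 genes were called, beside 0.125% of all genes, and the log2 fold changes ran from -0.10 for *Actn2* to 0.09 for *Myom2*. The edgeR test gave 0 of the 7 an unadjusted p under 0.05 in this comparison, and DESeq2 called 0. LV PAB-H 2, 1 of the 5 libraries that stood apart, held 596 CPM of *Myom1* where the other LV PAB-H libraries held at least 1969, and 2069.6 CPM of *Myom2* where the others held at least 5727. In AOB-H 0 of 7 genes were called either, beside 7.98% of all genes, with *Myom2* at 0.50 ± 0.21 (SE, adjusted p = 0.145), *Tcap* at 0.50 ± 0.28 (SE, adjusted p = 0.331) and *Ldb3* at 0.39 ± 0.15 (SE, adjusted p = 0.0924). The unadjusted p of *Myom2* and *Ldb3* was under 0.05, and DESeq2 called 0 of 7. All 3 were called with the animal as a block, at 0.53 (adjusted p = 0.0244), 0.56 (adjusted p = 0.00945) and 0.43 (adjusted p = 0.0175), and each was higher in the RV in 6 of 6 animals. Without the 5 libraries that stood apart, *Myom2* and *Ldb3* were called, though none of the 5 is an AOB-H library. What changed there was what all groups share in the fit, such as the estimate of the spread. Without the 3 RV libraries closest to the LV, *Ldb3* was called at 0.42 (adjusted p = 0.049) and *Myom2* was not, at 0.57 (adjusted p = 0.0739). These 3 were picked by likeness to the LV, which favours larger values here. LV AOB-H 6 was the lowest library of its group for all 7 genes, and it held the fewest counts (6675290) and the highest endothelial share (0.472%).

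Within animals, the difference between RV and LV could be read without the spread between rats. *Myom1* was higher in the RV in 9 of 9 Sham-F, 7 of 7 AOB-F and 6 of 6 PAB-F rats, with log2 differences of 0.64 to 1.73 (median 1.22), 0.66 to 1.56 (median 1.05) and 0.38 to 1.46 (median 0.93). In Sham-H rats the difference ran from -0.029 to 1.46 (median 0.089), and 3 rats lay well above the other 4. *Myom2* was higher in the RV in all 22 F rats and in 17 of 19 H rats. *Tcap* was higher in the RV in 16 of 19 H rats and in 8 of 22 F rats. Whether the difference itself differed between Sham-F and Sham-H was tested as a contrast of contrasts. The RV against LV difference was larger in Sham-F for 4 genes, *Myom1* by 0.82 ± 0.23 (SE, adjusted p = 0.00451), *Myom2* by 0.67 ± 0.26 (SE, adjusted p = 0.0308), *Myoz2* by 0.49 ± 0.15 (SE, adjusted p = 0.00801) and *Actn2* by 0.42 ± 0.16 (SE, adjusted p = 0.032), beside 41.6% of all genes called and 23% called in this direction. For *Mybpc3*, *Ldb3* and *Tcap* the values were 0.19 ± 0.15 (SE, adjusted p = 0.299), 0.31 ± 0.18 (SE, adjusted p = 0.156) and -0.60 ± 0.35 (SE, adjusted p = 0.157). With the animal as a block *Tcap* was called, at -0.62 (adjusted p = 0.00727). The *Myom2* call was lost, with values down to 0.59, without LV Sham-F 9 and without LV Sham-H 1, 2, 3 or 7, each left out alone, and that of *Actn2*, with values down to 0.35, without LV Sham-F 9 or LV Sham-H 3 or 7. *Ldb3* was called without LV Sham-H 4, at 0.41, and without the 5 libraries that stood apart, at 0.43 (adjusted p = 0.0202). Without the 5 libraries that stood apart the value of *Myom2* was 0.92 (adjusted p = 0.000359). As these were picked by likeness to the other stage, their removal favours larger values of *Myom2* and *Ldb3* here. With length deciles centred, *Myom2* and *Actn2* were not called, at 0.56 (adjusted p = 0.0698) and 0.37 (adjusted p = 0.0678).

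**Figure D3:**
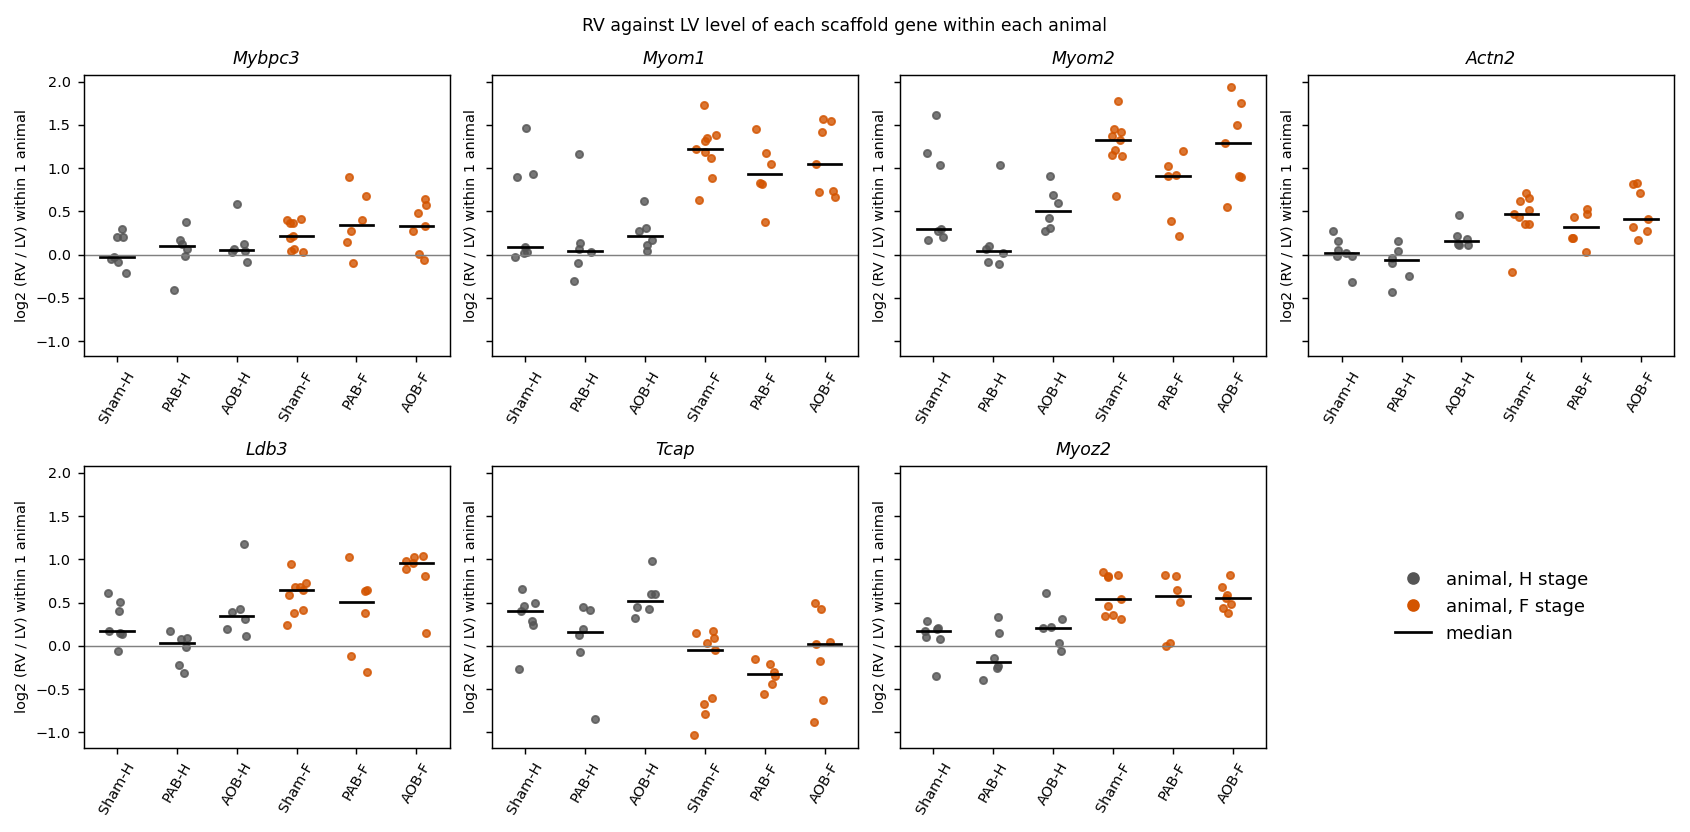
Difference between RV and LV of the same rat for each of the 7 genes, in log2 units, with 1 point per rat (H stage in grey, F stage in orange) and the median of each condition as a black line. For *Myom1* and *Myom2* all 22 F rats lie above 0, and for *Tcap* all 6 PAB-F rats lie below 0.

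Sham-operated rats of both stages show how the scaffold genes differed with age and time after surgery, in the absence of a band. In the RV, 0 of 7 genes were called, beside 0.0502% of all genes, none had an unadjusted p under 0.05 and DESeq2 called 0 of 7. The 95% confidence intervals of the log2 fold change were -0.42 to 0.24 for *Myom1*, -0.22 to 0.52 for *Myom2* and -0.30 to 0.67 for *Tcap*. In the LV, 6 of 7 genes were called, beside 57.4% of all genes. Of these, 5 were lower in Sham-F (beside 29.6% of all genes) and *Tcap* was higher (beside 27.7%). *Myom1* showed the largest decrease. It held 678 to 1086 CPM (median 874) in LV Sham-F and 793 to 2247 CPM (median 1961) in LV Sham-H and fell by 0.90 ± 0.16 on the log2 scale (SE, edgeR adjusted p = 7.02e-06). LV Sham-H 5 lay inside the Sham-F range, and LV Sham-H 4 and 6 lay just above its upper end. Without the 5 libraries that stood apart the change of *Myom1* was -1.13 (adjusted p = 5.24e-12) and that of *Myom2* -0.77 (adjusted p = 3.45e-05), where *Myom2* had changed by -0.52 ± 0.18 (SE, adjusted p = 0.0115) with them. These 5 were picked by likeness to the other stage, which favours larger changes here. *Myoz2* did not overlap between the stages, with 461 to 674 CPM (median 545) in Sham-F and 685 to 946 CPM (median 715) in Sham-H and a change of -0.47 ± 0.11 (SE, adjusted p = 0.00015). *Actn2* and *Mybpc3* changed by -0.43 ± 0.11 (SE, adjusted p = 0.0011) and -0.29 ± 0.10 (SE, adjusted p = 0.0145). *Ldb3* was not called at -0.23 ± 0.13 (SE, adjusted p = 0.108), and was called without the 5 libraries, at -0.35 (adjusted p = 0.00798), and with LV Sham-H 4, LV Sham-F 5 or LV Sham-F 8 left out alone, at -0.32 to -0.29. *Tcap* rose by 0.78 ± 0.25 (SE, adjusted p = 0.00568). It held 152 to 455 CPM (median 316) in LV Sham-H and 304 to 659.7 CPM (median 544) in LV Sham-F, and the ranges overlapped. Here, too, gene length moved with the comparison, since the median of all genes was 0.33 in the shortest and -0.20 in the longest decile. *Tcap* was 0.52 (adjusted p = 0.0456), *Myom2* -0.40 (adjusted p = 0.051) and *Mybpc3* -0.18 (adjusted p = 0.138) with length deciles centred. The endothelial share was 0.0991% to 0.248% (median 0.145%) in LV Sham-H beside the higher Sham-F values given above, and its part in these changes was not tested.

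Banding was the treatment of the study, and the 8 comparisons set RV and LV of banded rats against the matching ventricle of sham rats at each stage. PAB and AOB groups of 1 stage share these controls. In the 8 comparisons 0 of 7 scaffold genes were called. In the loaded RV the background was 4.5% of all genes in PAB-H and 11.1% in PAB-F, and in the loaded LV it was 0.0167% in AOB-H and 12.9% in AOB-F. In the ventricle not loaded by the band, 0% of all genes were called in LV PAB-H, 0% in LV PAB-F, 0% in RV AOB-H and 0.0669% in RV AOB-F. At an unadjusted p under 0.05, 1 member stood out in RV PAB-F (*Myom2*) and 1 in RV AOB-H (*Tcap*), and 0 did in the other 6 comparisons. DESeq2 called 0 of 7 in each of the 8 comparisons. Where edgeR called 0 genes in all, 305 genes in LV PAB-H, 453 in LV PAB-F and 171 in RV AOB-H had an unadjusted p under 0.05, and DESeq2 called 0 genes in each.

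*Myom2* had the lowest log2 fold changes of the 7 genes in the loaded RV. It held 4248 to 6824 CPM (median 5986) in RV PAB-H against 7029.6 to 8217 CPM (median 7419) in RV Sham-H, with no overlap, and 4154 to 7219 CPM (median 6043) in RV PAB-F against 7198 to 8953 CPM (median 8588) in RV Sham-F, where the ranges just met. The log2 fold changes were -0.35 ± 0.20 (SE, adjusted p = 0.334) at the H stage and -0.49 ± 0.19 (SE, adjusted p = 0.0823) at the F stage. Neither passed the threshold. In fits of the compared groups alone *Myom2* was called at both stages, at -0.35 (adjusted p = 0.0325) and -0.49 (adjusted p = 0.00748), and in RV PAB-F it was also called with sex as a covariate, at -0.54 (adjusted p = 0.049), and without the 5 LV libraries, at -0.49 (adjusted p = 0.025). The log2 fold changes of the other 6 genes in RV PAB-F ran from -0.25 for *Myom1* to 0.20 for *Mybpc3*, with intervals of -0.59 to 0.10 and -0.021 to 0.41. *Mybpc3* was called as higher when libraries were scaled to their totals, at 0.28 (adjusted p = 0.0271), or to 7 filament genes, at 0.35 (adjusted p = 0.0369). The fibroblast list took 0.0273% to 0.199% (median 0.0518%) in RV PAB-F and 0.0151% to 0.0507% (median 0.0242%) in RV Sham-F, with 5 of 9 tested genes called as higher and 0 as lower, and in PAB-H 0.0355% to 0.304% (median 0.0524%) against 0.0236% to 0.0461% (median 0.0351%), with 9 of 9 called as higher. The highest of these shares, 0.304% and 0.199%, were those of RV PAB-H 2 and RV PAB-F 1, which were closest to the LV H class and also held the lowest *Myom2* levels of their groups, 4248 and 4154 CPM. Without the 3 RV libraries closest to the LV, *Myom2* was at -0.28 (adjusted p = 0.672) in RV PAB-H and -0.41 (adjusted p = 0.272) in RV PAB-F, and 0 and 1 of the 9 fibroblast genes were called as higher. Over all genes the number called then fell from 538 to 38 in RV PAB-H and from 1325 to 403 in RV PAB-F. The part of the fibroblast shares was not tested.

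In the loaded LV the values were centred near 0, with *Myom1*, *Myom2*, *Actn2* and *Myoz2* of AOB-F at 0.13, -0.02, 0.02 and 0.00087 on the log2 scale. *Ldb3* held 875 to 1760.1 CPM (median 1009) in LV AOB-F against 1033 to 1725 CPM (median 1243) in LV Sham-F, a log2 fold change of -0.25 ± 0.13 (SE, adjusted p = 0.18). LV AOB-F 5 was the library at the top of the range, and without it *Ldb3* was called, at -0.39 (edgeR adjusted p = 0.0281). Without the 5 libraries that stood apart it was also called, at -0.40 (adjusted p = 0.00875). Scaled to filament genes, which moved the median of all genes in this comparison to 0.37, *Myom1*, *Actn2* and *Myoz2* were called as higher, at 0.38 (adjusted p = 0.046), 0.31 (adjusted p = 0.00482) and 0.33 (adjusted p = 0.0227). These values lie near that median. *Tcap* had log2 fold changes of 0.42 ± 0.27 (SE, adjusted p = 0.377) in LV AOB-H and -0.32 ± 0.25 (SE, adjusted p = 0.404) in LV AOB-F, and in the RV of the same rats of 0.59 ± 0.27 (SE, adjusted p = 1) and -0.25 ± 0.25 (SE, adjusted p = 1). Among the 7 LV AOB-F libraries, replicates 6 and 7 held the lowest *Myom2* values, and their *Myh6* shares were 0.464% and 0.641% where the group median was 1.68%. The part of these shares was not tested.

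Differences between responses were tested in the same fit. For the response to PAB-F in RV minus LV, 0 of 7 genes were called beside 0.351% of all genes, with *Myom2* at -0.46 ± 0.27 (SE, adjusted p = 0.454). For AOB-F in LV minus RV, 0 of 7 were called beside 0%, for PAB in the RV between F and H 0 of 7 beside 0%, and for AOB in the LV between F and H 0 of 7 beside 0%. In these 3 contrasts 1161, 177 and 1148 genes had an unadjusted p under 0.05 by edgeR, and DESeq2 called 0, 0 and 36 genes, none of them among the 7. In the last of these *Tcap* had the largest value, -0.73 ± 0.36 (SE, adjusted p = 0.51), with an unadjusted p of 0.0482.

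**Figure D4:**
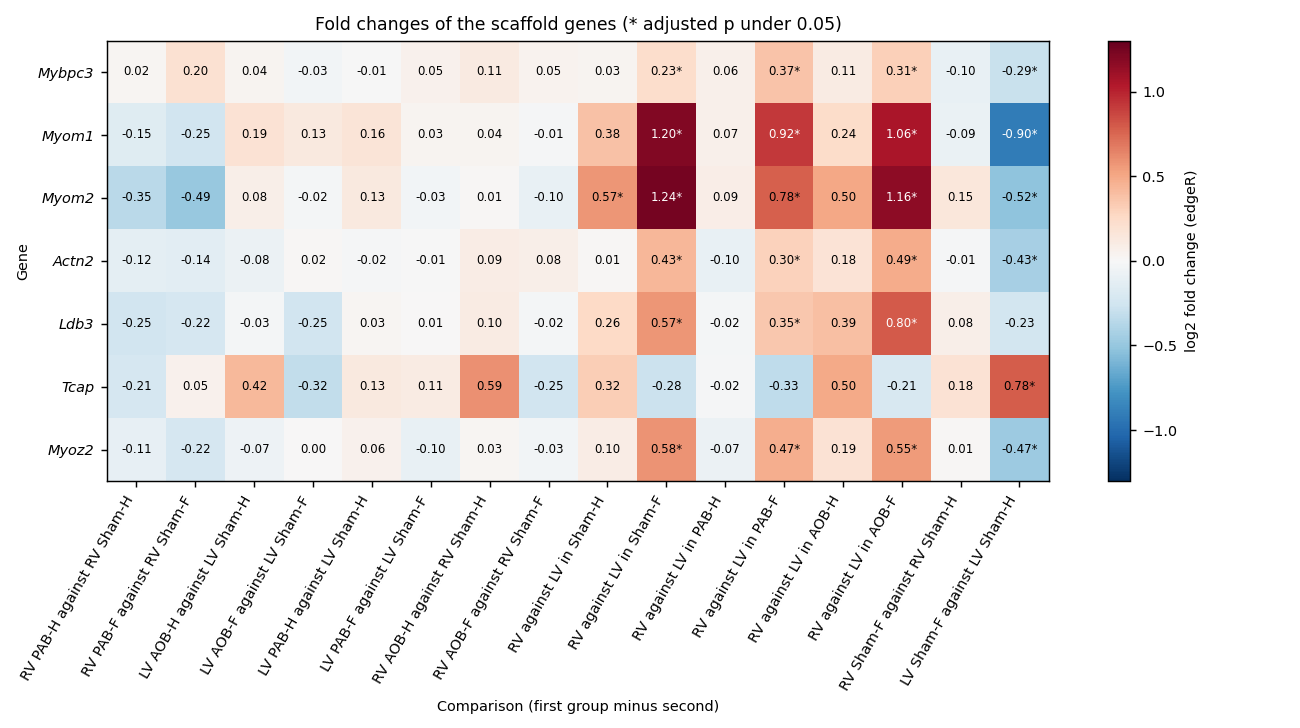
Log2 fold changes of the 7 genes (rows) in 16 comparisons of 2 groups (columns), with the value printed in each cell, red for higher and blue for lower in the first group, and an asterisk for an adjusted p under 0.05. The 8 banding comparisons on the left hold no asterisk, and asterisks gather in the RV against LV comparisons of the F stage and in LV Sham-F against LV Sham-H.

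Other genes of the sarcomere gave the setting of these values. In RV against LV of Sham-F, 10 higher and 7 lower of 21 tested genes of the Z-disc list were called, as were 4 higher and 4 lower of 10 for partners of the M-band and the titin kinase, 6 higher and 1 lower of 7 for regulators of titin splicing, 9 higher and 3 lower of 12 for sarcomere assembly factors and chaperones and 4 higher and 3 lower of 10 for filament proteins. The medians were 0.19, 0.18, 0.56, 0.91 and -0.0019 on the log2 scale, beside -0.069 over all tested genes, of which 74.3% were called and 35.6% were called as higher. The largest changes were those of the thin filament and Z-disc proteins nexilin (*Nexn*, 2.31 ± 0.24 (SE, adjusted p = 3.58e-13)) and nebulette (*Nebl*, 2.30 ± 0.22 (SE, adjusted p = 1.68e-14)) and of the actin-binding protein *Xirp2* (2.27 ± 0.32 (SE, adjusted p = 2.55e-09)), with mean levels of 342 against 69.3 CPM, 539 against 109.7 CPM and 1060.3 against 219.6 CPM. In AOB-F *Nebl* and *Nexn* were again far higher in the RV, by 2.30 and 2.03, whereas *Ankrd23*, an ankyrin repeat protein of the titin I-band, was lower, at -2.49 ± 0.39 (SE, adjusted p = 1.13e-07). In PAB-F *Xirp2* (2.55 ± 0.40 (SE, adjusted p = 3.08e-07)) and the actin capping gene *Capza2* (1.71 ± 0.29 (SE, adjusted p = 9.14e-07)) were higher in the RV. So was *Ankrd2*, though at very low mean levels of 1.09 against 0.305 CPM.

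In LV Sham-F against LV Sham-H, the counts were 5 higher and 8 lower of 21 for the Z-disc list, 2 higher and 2 lower of 10 for M-band partners, 1 higher and 5 lower of 7 for splicing regulators, 1 higher and 8 lower of 12 for assembly factors and 2 higher and 4 lower of 10 for filament proteins, with medians of -0.14, 0.042, -0.36, -0.53 and 0.025 beside 0.034 over all genes, of which 57.4% were called, 27.7% as higher and 29.6% as lower. *Murc*, a caveolar protein of muscle, and *Capza2* fell, with log2 fold changes of -1.501 and -1.379 (edgeR adjusted p = 1.02e-06 and 4.42e-06), and *Ankrd23* rose by 1.27 ± 0.37 (SE, adjusted p = 0.00226). In Sham-H, *Nebl* was higher in the RV, by 1.05 ± 0.24 (SE, adjusted p = 0.00167), and *Ankrd23* and skeletal actin (*Acta1*) were lower, at -1.48 ± 0.39 (SE, adjusted p = 0.00591) and -1.31 ± 0.37 (SE, adjusted p = 0.0102). In AOB-H *Ankrd23* was lower and the myosin light chain kinase *Mylk3* was higher in the RV, at -1.43 ± 0.42 (SE, adjusted p = 0.0192) and 0.60 ± 0.15 (SE, adjusted p = 0.00393). The RV against LV difference was larger in Sham-F than in Sham-H for *Murc* (1.59 ± 0.34 (SE, adjusted p = 0.000506)), *Capza2* (1.48 ± 0.35 (SE, adjusted p = 0.00091)) and the thin filament nucleator *Lmod2* (1.40 ± 0.36 (SE, adjusted p = 0.00192)).

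Under banding, where none of the 7 scaffold genes passed, other genes of the sarcomere lists did. In RV PAB-F 5 higher and 1 lower of 21 tested Z-disc genes were called, and in LV AOB-F 5 higher and 0 lower of 21, with medians of 0.032 and 0.19 beside 0.016 and 0.038 over all genes, of which 11.1% and 12.9% were called. Without the 3 RV libraries closest to the LV, 2 higher and 0 lower of the 21 were called in RV PAB-F. *Ankrd23* rose in the loaded RV by 2.17 ± 0.41 (SE, adjusted p = 0.00138) in PAB-H and 3.18 ± 0.38 (SE, adjusted p = 3.17e-09) in PAB-F and in the loaded LV by 1.82 ± 0.35 (SE, adjusted p = 0.000448) in AOB-F. *Acta1* rose by 2.01 ± 0.39 (SE, adjusted p = 0.00184) and 2.52 ± 0.36 (SE, adjusted p = 5.62e-07) in the loaded RV. In RV PAB-F *Ankrd2* was also higher, at very low mean levels of 1.09 against 0.305 CPM, and was not called without the 3 RV libraries closest to the LV (log2 fold change 1.35, edgeR adjusted p = 0.17). Without them *Ankrd23* and *Acta1* were called in the loaded RV at both stages, with log2 fold changes of 2.15 and 2.02 in PAB-H and of 2.79 and 2.40 in PAB-F. In LV AOB-F the titin-binding LIM protein *Fhl1* rose by 1.21 ± 0.22 (SE, adjusted p = 0.000176) and *Xirp2* by 1.16 ± 0.33 (SE, adjusted p = 0.0123). The response to PAB-F was larger in the RV than in the LV for *Ankrd23* (2.80 ± 0.53 (SE, adjusted p = 0.00313)) and *Acta1* (2.07 ± 0.52 (SE, adjusted p = 0.048)). Without the 3 RV libraries the values were 2.41 (edgeR adjusted p = 0.0485) for *Ankrd23* and 1.95 (edgeR adjusted p = 0.201) for *Acta1*, which was then not called. Of the 7 regulators of titin splicing, 2 were called as lower in RV PAB-F, beside 11.1% of all genes called, and 0 were called there without the 3 RV libraries. None of the 7 was called in RV PAB-H, LV AOB-H or LV AOB-F, where 4.5%, 0.0167% and 12.9% of all genes were.

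Across the 12 groups, the mean levels of 6 scaffold genes varied together and *Tcap* did not. Over the 12 group means on the log2 scale, Pearson's r between pairs of the other 6 genes ran from 0.786 (*Mybpc3* and *Myom2*) to 0.981 (*Actn2* and *Myoz2*), and with *Tcap* from -0.47 (*Myoz2*) to -0.067 (*Ldb3*). These points share libraries and normalization, so they are a description. Among 9441 genes with a mean count of at least 50, those most like *Myom2* over the group means were *Foxp2* (r = 0.995), *Svip* (0.995) and *Esrrg* (0.994), and those most like *Tcap* were *Dbp* (0.938), *Dgat2* (0.88) and *Cnksr1* (0.874). *Foxp2* and *Esrrg* encode transcription factors, *Svip* a small protein that binds the segregase VCP, *Cnksr1* a scaffold of Ras signalling, *Dgat2* an enzyme of triglyceride synthesis, and *Dbp* a transcription factor of the output of the circadian clock.

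Whether these likenesses also held between rats of the same group was then computed, a step chosen after the data were seen. Log2 CPM was centred on the group mean, averaged over RV and LV of each rat and permuted 100000 times within conditions (two-sided), with adjustment over the 6 relations. The genes had been picked by their group means in these same libraries. The share of all genes that would pass the same test was not computed. *Tcap* varied with *Dbp* across 41 rats, with Pearson's r = 0.838 (permutation, adjusted p = 6e-05) and Spearman's rho = 0.83 (permutation, adjusted p = 6e-05). The unadjusted p of both was 1e-05, the smallest these permutations can give, and r was 0.763 without the 2 rats farthest from the median of *Dbp*. The widest gap in *Dbp* that left at least 5 rats on either side had 15 below and 26 above it, and r was 0.637 and 0.549 on the respective sides. *Dbp* itself varied widely inside groups, for example 37.9 to 284 CPM (median 131) in LV Sham-F and 8.41 to 253 CPM (median 154) in RV AOB-H. The time of day of sampling is not given in the sources used here, and its part was not tested. For *Dgat2* and *Tcap* the values were Pearson's r = 0.672 (permutation, adjusted p = 0.0001) and Spearman's rho = 0.646 (permutation, adjusted p = 6e-05), and r was 0.549 without the 2 farthest rats. For *Cnksr1* and *Tcap* they were Pearson's r = 0.636 (permutation, adjusted p = 0.0004) and Spearman's rho = 0.599 (permutation, adjusted p = 0.0004), with r = 0.469 without the 2 farthest rats.

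For *Myom2*, *Svip* gave Pearson's r = 0.736 (permutation, adjusted p = 6e-05) and Spearman's rho = 0.612 (permutation, adjusted p = 0.0002), and r was 0.648 without the 2 rats farthest from its median. *Esrrg* gave Pearson's r = 0.435 (permutation, adjusted p = 0.0263) and Spearman's rho = 0.228 (permutation, adjusted p = 0.191), which fell to r = 0.145 without the 2 farthest rats, so this relation rested on those animals. *Foxp2*, although its group means were most like those of *Myom2*, did not pass, with Pearson's r = 0.337 (permutation, adjusted p = 0.0722) and Spearman's rho = 0.162 (permutation, adjusted p = 0.333) and r = 0.118 without the 2 farthest rats.

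**Figure D5:**
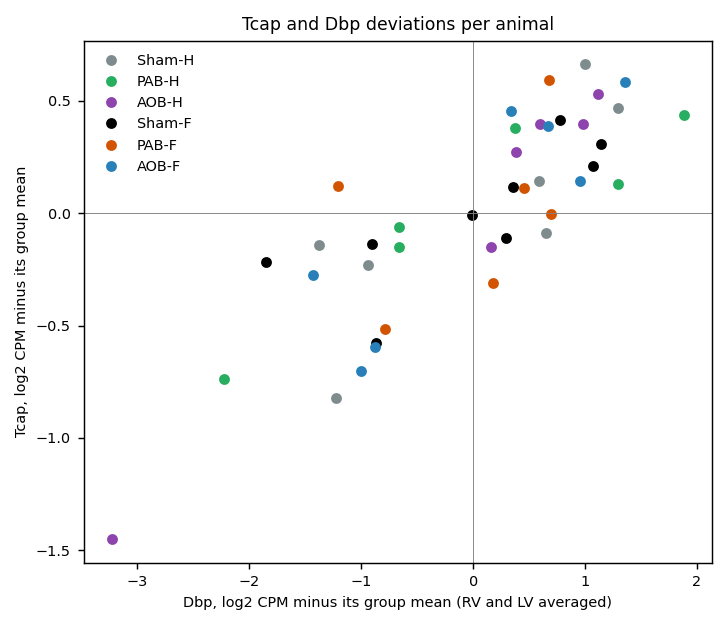
*Tcap* against *Dbp* in 41 rats, each as log2 CPM minus its group mean, averaged over RV and LV, with 1 point per rat and colour for the condition. Points run from lower left to upper right (r = 0.838), and 1 AOB-H rat lies lowest for both genes.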

How the data were processed

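Libraries of isolated rat cardiomyocytes were sequenced as ribosome-depleted total RNA. Per the labels and the study's methods, the authors trimmed reads with Trim Galore, aligned them with STAR to the Rnor6.0 genome with UCSC gene annotation, and counted them per gene with featureCounts, without reads that overlapped several genes. The deposited table holds raw read counts, counts divided by DESeq2 size factors (a normalized signal made by the authors with DESeq2 1.28.1) and FPKM values, which the authors derived with 1 length per gene. The normalized signal was not analysed here.

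Raw counts were tested with the quasi-likelihood fit of edgeR 4.0.16 in R 4.3.3 (TMM scaling, genes kept by filterByExpr, 12 groups over 82 libraries, no covariate) and adjusted by Benjamini-Hochberg, with a threshold of 0.05. Every library is a separate ventricle of 1 rat, and RV and LV of a rat were paired by the animal number in the labels. Deviations from group means correlated between RV and LV of the same rat with a median r of 0.205 to 0.347 and between different rats with -0.0781 to 0.0131. Alternatives were DESeq2 1.42.0, its size factors, library totals, scaling to 7 filament genes, no count filter, sex as a covariate, centred gene length deciles, replicate blocks, the compared groups alone, the study's criteria and leaving out libraries. Leaving out the 5 LV libraries nearest to the other stage, or the 3 RV libraries nearest to the LV, was chosen after the data were seen. The test was checked on simulated data. Members and gene lists were chosen with earlier results of these data known. Named genes were the 7 scaffold genes, at most 3 called genes of the other lists per comparison by size of change, and the 3 genes most like *Myom2* and *Tcap*.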

Additional observations from a re-analysis of the deposited data

Results flagged for a closer look

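Of 84 combinations of a scaffold gene and a group, 17 held a library far from the others by Dixon's criterion, which chance alone gives in about 1 of 20. The genes share libraries and several flags fall on the same rats, so the combinations are not independent and this rate is a rough guide. Replicate 6 of LV AOB-H was lowest for *Actn2* (2064.6 CPM), *Ldb3* (785 CPM), *Mybpc3* (4977 CPM) and *Myom1* (1247 CPM), and the RV of the same rat was lowest in RV AOB-H for *Actn2* (2830.03 CPM) and *Myoz2* (634 CPM). Replicate 5 of LV PAB-F was highest for *Mybpc3* (8371 CPM), *Myom1* (1466 CPM), *Myom2* (4704 CPM) and *Myoz2* (680.2 CPM).

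Replicate 2 of LV PAB-H was lowest for *Myom1* (596 CPM) and *Myom2* (2069.6 CPM), and replicate 2 of RV PAB-H was lowest for *Myom2* (4248 CPM). Single libraries stood high for *Actn2* in LV Sham-F (replicate 2, 3684 CPM), *Ldb3* in LV AOB-F (replicate 5, 1760.1 CPM), *Myoz2* in LV Sham-H (replicate 3, 946 CPM) and *Tcap* in RV AOB-F (replicate 4, 577 CPM).

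The RV against LV difference was larger in Sham-F than in Sham-H, by the edgeR test of the difference itself, for *Myom1* (0.82, adjusted p = 0.00451), *Myom2* (0.67, adjusted p = 0.0308), *Actn2* (0.42, adjusted p = 0.032) and *Myoz2* (0.49, adjusted p = 0.00801).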

How the results depend on the processing

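No called difference changed sign under any alternative, and the number of scaffold genes called kept within 1.5 times its main value in 228 of 252 settings. These include comparisons with 0 genes called in the main fit, where 0 again counts as kept. Where genes were called, the number was kept in 8 of 12 settings for RV against LV of Sham-H. It was kept in 11 of 12 for Sham-F, 11 of 12 for AOB-F and 9 of 12 for PAB-F. For LV Sham-F against LV Sham-H it was 11 of 12, and for the difference of Sham-F from Sham-H 10 of 12. With only the compared groups in the fit the number of the 7 genes called was 1 in RV PAB-H (0 in the fit of all groups), 1 in RV PAB-F (0), 0 in RV against LV of Sham-H (1) and 3 in PAB-F (6). In RV PAB-F it was also 1 with library totals, filament scaling and sex as a covariate. It was 1 there, too, without the 5 LV libraries that stood apart, which are not in the compared groups. In LV AOB-F it was 3 with filament scaling, 1 with length deciles centred and 1 without the 5 LV libraries. Without these 5 libraries it was 0 in RV against LV of Sham-H. It was 2 in AOB-H, to which none of the 5 belongs, and 1 there without the 3 RV libraries closest to the LV. With length deciles centred it was 3 in PAB-F and 2 for the difference of Sham-F from Sham-H. By the study's criteria it was 2 in Sham-F, 2 in AOB-F, and 0 in Sham-H, PAB-F, LV Sham-F against LV Sham-H and the difference of Sham-F from Sham-H.

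With the animal as replicate block the number was 2 in RV against LV of Sham-H and 3 in AOB-H. Single genes whose call the block changed were given with the results, and the block took none of the calls in the RV against LV comparisons away. Between conditions the replicate numbers belong to different rats and share only a number, and a block on them moved no count of scaffold genes called by over 1.5 times, though *Ldb3* was called in LV Sham-F against LV Sham-H (-0.29, edgeR adjusted p = 0.0457). Leaving out 1 library at a time gave 0 to 1 called in LV AOB-F, 0 to 2 in RV against LV of Sham-H and 2 to 5 for the difference of Sham-F from Sham-H, and the cause of these shifts was not tested. Scaling to filament genes moved the median log2 fold change of all genes by up to 0.33 (LV AOB-F), and library totals by -0.13 in RV against LV of AOB-F.

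Depth did not limit detection of the 7 genes, whose lowest count was 978. Counts per gene cannot resolve isoforms, and 6 to 9 rats per group limit the precision.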
